A study of Mus musculus with 3 samples.

Results

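The genes described here encode enzymes of heme synthesis: Alas2, Alas1, Alad, Uros, Urod, Cpox, Ppox and Fech. They were chosen by gene symbol from the 17857 genes of the deposited count table, and all 8 were found. The table comes from 3 libraries of total RNA, which form 1 group with no control population. The cells were CD11c-negative, Ly6C-positive and c-kit-positive, sorted from pooled lymph nodes that drained untreated B16F10 melanomas in C57BL/6 mice on day 14 of tumour growth. The libraries carry the replicate numbers 1, 2 and 3. No gene was deleted and no agent was given in any of them. The series concerns BTK and IDO in dendritic cell differentiation, and the labels set no question on heme.

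Heme is an iron-bearing ring that hemoglobin, cytochromes, catalase and the phagocyte oxidase need. Its synthesis starts in the mitochondrion, where aminolevulinate synthase joins glycine and succinyl-CoA, passes through the cytosol, and ends in the mitochondrion, where ferrochelatase inserts iron. The first step is set by a pair of genes: Alas1 is used in nearly all tissues and is repressed by heme, while Alas2 is used in developing red cells. A lymph node is not a usual site of red cell formation in adult mice.

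Levels are normalised read counts (CPM, counts scaled to a common library total, with TMM factors), also divided by the deposited gene length in kilobases where genes are compared. Totals were 9077195, 13885509 and 13861430 counts in replicates 1, 2 and 3, and mitochondrial genes took 17.8%, 6.22% and 13.1% of them. Of the genes whose products defined the sort, Kit (c-kit) was read at 5.35 to 9.77 CPM and Ly6c2 at 11.5 to 121 CPM. Itgax, the gene of the excluded CD11c, was read at 24.1 to 43.2 CPM, so its messenger was not absent from the sorted cells. Replicate 1 stood apart: 632 genes of the table had no count in it, against 3788 in replicate 2 and 2199 in replicate 3. Erythroid and macrophage markers were also highest in it. In bulk RNA, more cells of a type and more RNA per cell cannot be told apart. The labels do not say whether the libraries came from separate mice, so each p-value reflects the scatter of these 3 libraries, and that scatter could be technical.

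The start sites of the enzyme genes differ in sequence, and the stretches below show where. Alas2 lies on chromosome X, 150547417 to 150570622 on the plus strand (build GRCm38.p6, equal to mm10). Cpox lies on chromosome 16, 58670208 to 58680391 on the plus strand, and Alas1 on chromosome 9, 106233455 to 106247954 on the minus strand. The first stretch is chrX:150547167-150547374, plus strand, upstream of every Alas2 exon annotated in RefSeq or GENCODE M21. The second is chr16:58669958-58670207, plus strand, the 250 bases before the RefSeq start of Cpox. The third is chr9:106247906-106247935, minus strand, a 30-base site just inside the RefSeq span of Alas1. All are RefSeq promoter bases of that build, written 5′ to 3′, with matches to the searched words in capitals.
Alas2: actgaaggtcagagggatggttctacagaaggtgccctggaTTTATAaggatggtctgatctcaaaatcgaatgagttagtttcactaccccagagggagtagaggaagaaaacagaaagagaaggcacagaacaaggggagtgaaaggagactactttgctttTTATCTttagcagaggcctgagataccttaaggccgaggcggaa
Cpox: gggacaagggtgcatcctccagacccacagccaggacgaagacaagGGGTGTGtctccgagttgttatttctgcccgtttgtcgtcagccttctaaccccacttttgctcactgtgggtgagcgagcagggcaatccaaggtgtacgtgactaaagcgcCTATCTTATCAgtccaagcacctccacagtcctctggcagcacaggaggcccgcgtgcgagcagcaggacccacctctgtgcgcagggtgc
Alas1: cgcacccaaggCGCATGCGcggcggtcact

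In the Alas2 stretch the capitals TTATCT are a GATA word, AGATAA on the other strand, and TTTATA reads TATAAA on the other strand. GATA words (AGATAA and TGATAA, or AGATAG and TGATAG) are bound by GATA factors, among them GATA1 of red cells. Cpox holds 2 GATA words that overlap by 1 base and a CACCC-box word (CCACCC or CACACCC). In Alas2, 3 overlapping CACCC words lie between the printed stretch and the RefSeq start. The Alas1 site holds CGCATGC, the core of the word that NRF1, a regulator of mitochondrial genes, binds. All words were searched on both strands in the 250 bases before each RefSeq start. GATA words stood in 26.6% of all 32817 such windows, CACCC words in 32.7%, CGCATGC in 3.01%, TATAAA in 12.4% and the E-box CAGCTG in 13.0%. Among the enzyme genes, 7 had such windows, 10 in all, since Alas1, Alad and Uros had 2 each. Fech had no window among those searched, so its upstream bases are not described here. GATA words stood in 3 of the 10, of Alas2, Cpox and Uros, and CACCC words in 3, of Alas2, Cpox and Alas1, both shares near those of all windows. CGCATGC stood in 1 of the 10, of Alas1, TATAAA in 1, of Alas2, and CAGCTG in 1, of Urod. The Uros words stood before a start inside the gene, and its start nearer the gene's outer end had none. Such matches describe these letters and do not show that a factor binds.

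The messenger of Alas2 also carries an iron-responsive element, a hairpin by which iron regulatory proteins hold back translation when iron is scarce. It was searched for in annotated 5′ untranslated regions of GENCODE M21 as a bulged C, a stem of 5 pairs with G-T pairs allowed, and the loop CAGTGN. Of the 8 enzyme genes, 1 held it, Alas2, and so did 31 of all 21165 genes with an annotated 5′ region (0.146%). In the lists of iron and heme genes described further on, Fth1 and Ftl1, the ferritin chains, and Slc40a1, the iron exporter ferroportin, held it as well. The elements are shown with the loop in capitals, in DNA letters.
Alas2: ggttcgtcctCAGTGCagggcaaca
Fth1: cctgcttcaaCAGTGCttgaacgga
Ftl1: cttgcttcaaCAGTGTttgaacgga
Slc40a1: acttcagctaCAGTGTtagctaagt

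Alas2 had the highest mean level per kilobase of the 8 enzyme genes, but this mean came from replicate 1. It had 5878, 162 and 552 counts, which are 618, 11.6 and 42.1 CPM, in replicates 1, 2 and 3. Replicate 1 thus stood 53.5-fold above replicate 2 and 14.7-fold above replicate 3, and replicate 3 stood 3.65-fold above replicate 2. Per kilobase the levels were 312, 5.84 and 21.3 CPM. These placed Alas2 at the 99.5th, 51.3rd and 78.3rd percentile of the 15490 genes tested in each library. The gene therefore lay among the most abundant messengers in replicate 1 and near the middle of all genes in replicate 2. Its mean was 224 ± 342 CPM (SD, n = 3), a spread larger than the mean.

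Alas1, the ubiquitous first enzyme, was even. It had 204, 449 and 257 counts, or 21.4, 32.03 and 19.6 CPM, in replicates 1, 2 and 3. The highest library was here replicate 2, the one in which Alas2 was lowest, and its highest and lowest libraries lay a smaller fold apart than any pair of libraries did for Alas2. The mean was 24.4 ± 6.70 CPM (SD, n = 3), and per kilobase it was 9.02 ± 2.48 CPM.

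Set side by side within each library, the genes of the first step changed places. Per kilobase Alas2 was 39.3 times Alas1 in replicate 1, 0.493 times in replicate 2 and 2.93 times in replicate 3. Of the reads on both genes, Alas2 held 96.6% in replicate 1, with a 95% Wilson interval of 96.2 to 97.1%. It held 26.5% in replicate 2, where the interval was 23.2 to 30.2%, and 68.2% in replicate 3, where it was 64.9 to 71.3%. The intervals cover counting error only, and they do not overlap between libraries. On the log2 scale of CPM per kilobase with 0.5 added, Alas2 minus Alas1 was 5.21, -0.96 and 1.49, with a mean of 1.91 ± 3.11 (SD, n = 3). It was positive in 2 of 3 libraries, and an exact two-sided sign-flip permutation test gave p = 0.5, where 3 libraries allow no less than 0.25. Which of the pair led therefore differed by library, and the mean difference was smaller than its spread. Without replicate 1 the mean difference was 0.26.

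**Figure D1:**
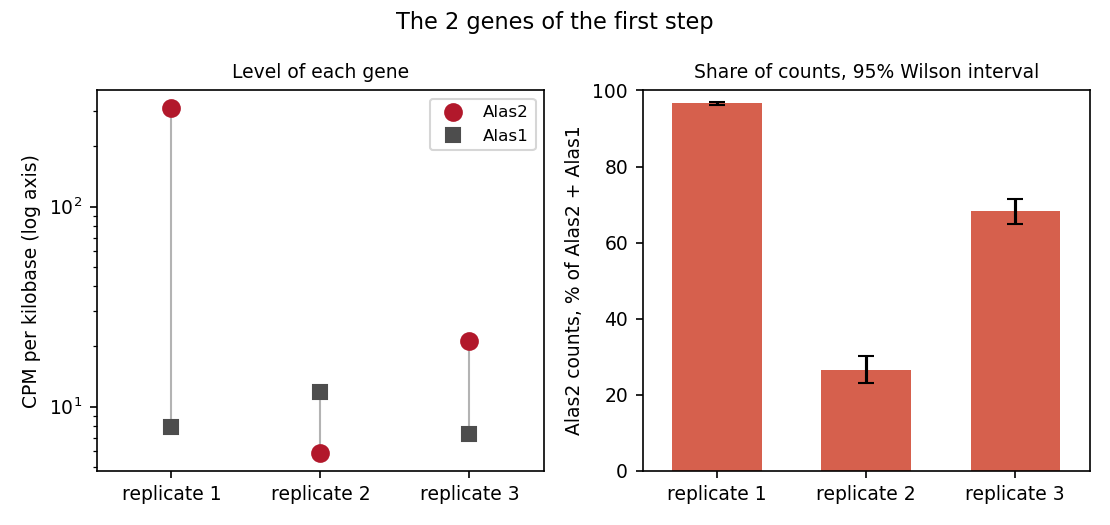
Left, level of Alas2 and Alas1 in CPM per kilobase (log axis) in each of the 3 libraries; right, Alas2 counts as a percentage of Alas2 plus Alas1 counts, with 95% Wilson intervals. Alas2 stands 39.3 times above Alas1 in replicate 1 and 2.93 times above it in replicate 3, and below it (0.493 times) in replicate 2.

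The last enzyme, Fech (ferrochelatase, which inserts the iron), came nearest to Alas2 among the other enzyme genes. It had 2290, 373 and 518 counts, or 241, 26.6 and 39.5 CPM, in replicates 1, 2 and 3. Replicate 1 stood 9.05-fold above replicate 2 and 6.09-fold above replicate 3, while the other two libraries lay 1.49-fold apart. The mean was 102 ± 120 CPM (SD, n = 3). Fech spans chromosome 18, 64456542 to 64489098.

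The enzymes between these ends moved less. Alad, the dehydratase that joins a pair of aminolevulinates into a pyrrole, had CPM values of 20.5, 5.92 and 7.48 in replicates 1, 2 and 3. Urod, which takes carboxyl groups off uroporphyrinogen, was read at 64.7, 30.5 and 25.5 CPM. Cpox, the next enzyme, which oxidises coproporphyrinogen, was read at 90.6, 34.2 and 28.0 CPM. These 3 genes were highest in replicate 1, by 2.13- to 3.46-fold over replicate 2 and 2.54- to 3.23-fold over replicate 3. Uros, which closes the ring, was read at 19.1, 9.84 and 11.8 CPM, and its replicate 1 stood 1.94-fold above replicate 2 and 1.62-fold above replicate 3. The step between Alad and Uros is not analysed here. Alad spans 62505984 to 62520063 and Urod 116989965 to 116994436 on chromosome 4, and Uros spans 133686142 to 133710467 on chromosome 7.

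Ppox, which oxidises protoporphyrinogen just before iron is inserted, did not share this pattern. Its CPM was 24.9, 28.8 and 24.1 in replicates 1, 2 and 3, with the smallest coefficient of variation of the 8 genes (9.68%). The mean was 25.95 ± 2.51 CPM (SD, n = 3). It spans 171276991 to 171281193 on chromosome 1. Its exons share 791 bases with those of B4galt3 on the other strand. The strand setting of the counting is not given in the sources used here, so reads of the pair may not be told apart. B4galt3 had 157, 337 and 242 counts. Alas2 likewise shares 311 exon bases with Apex2 (85, 199 and 184 counts), Cpox shares 204 with Gpr15 (35, 206 and 111 counts), and Alas1 shares 465 with an antisense gene. By these unscaled counts, Apex2 and Gpr15 were lowest in replicate 1, where Alas2 and Cpox were highest. B4galt3 was highest in replicate 2, as Ppox was. The part of shared reads in these levels was not tested.

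**Figure D2:**
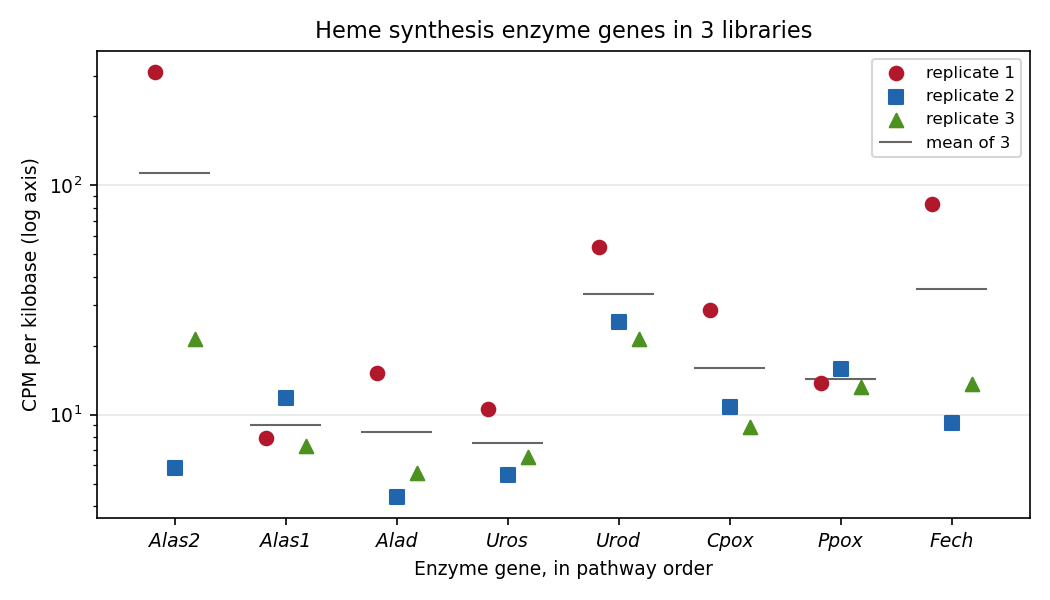
Level of the 8 enzyme genes in CPM per kilobase (log axis), in pathway order, with 1 marker per library and a bar at the mean of the 3. Replicate 1 is highest for 6 genes and lies far above the others for Alas2 (312 against 5.84 and 21.3) and Fech, while Alas1 and Ppox are highest in replicate 2.

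In all, 6 of the 8 enzyme genes were highest in replicate 1 and 2 in replicate 2, against 44.6% and 31.8% of all genes tested. Over 4-fold higher in replicate 1 than in each other library were 2 of 8, Alas2 and Fech, against 14.1% of all genes tested. The median ratio over the 8 genes was 2.39 for replicate 1 over replicate 2 and 2.64 for replicate 1 over replicate 3. Over all genes tested these medians were 1.00 and 1.01. The 8 genes summed to 1099.8, 179 and 198 CPM in replicates 1, 2 and 3. Per kilobase, Alas2 made up 59.5%, 6.59% and 21.8% of their sum, and the other 7 genes summed to 213, 82.8 and 76.3 CPM per kilobase.

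By mean level per kilobase the order was Alas2 (113 ± 173 CPM, SD, n = 3), Fech (35.3 ± 41.4), Urod (33.6 ± 17.8), Cpox (15.99 ± 10.8), Ppox (14.3 ± 1.38), Alas1, Alad (8.37 ± 5.93) and Uros (7.51 ± 2.70). Of the 7 neighbouring pairs, 2 kept their order in each of the 3 libraries. Urod exceeded Cpox by 1.11 ± 0.18 on the log2 scale per kilobase and Ppox exceeded Alas1 by 0.66 ± 0.23. Each had an exact sign-flip p = 0.25, which adjustment over all 7 pairs took to 0.875. The other 5 pairs did not differ beyond their spread, and each changed order between libraries. Fech exceeded Urod in the mean per kilobase but lay 0.48 below it in mean log2 level, since it was the higher one in replicate 1 alone. Read within a library, Alas2 led in replicates 1 and 3, whereas in replicate 2 Urod led and Alas2 stood at rank 6.

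All 8 enzyme genes lay above 1 CPM in edgeR's quasi-likelihood test with Benjamini-Hochberg adjustment, against 68.6% of the genes tested. The adjusted p was 8.04e-07 for Alad and lower for the other 7, and all 8 kept this call under each alternative listed in the closing section. Every enzyme gene also exceeded, in each library, the mean level per kilobase of 578 olfactory receptor genes, which leukocytes rarely use. That background was 0.248, 0.0208 and 0.0497 CPM per kilobase in replicates 1, 2 and 3, and the lowest enzyme gene stood 32.01-fold above it in replicate 1 and further above it in the others.

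Against 50 CPM, 1 enzyme gene lay above (19.9% of genes tested) and 4 below (66.7%). Alas2 lay above by 2.16 on the log2 scale (edgeR adjusted p = 0.0123). Alas1 (-1.04 on the log2 scale, edgeR adjusted p = 0.00331), Alad (-2.15, 0.00256), Uros (-1.88, 7.02e-04) and Ppox (-0.95, 0.00205) lay below. Fech (1.03, 0.0606), Cpox (0.02, 0.942) and Urod (-0.32, 0.285) were not separated from 50 CPM. The call on Alas2 rested on replicate 1. Without it, Alas2 lay below 50 CPM by -0.93 (edgeR adjusted p = 0.0488), Fech by -0.63 (0.0227), Cpox by -0.72 (0.00968) and Urod by -0.87 (0.00461), so all 8 lay below and 0 above (0 at an unadjusted p under 0.05 as well). Over all genes tested without replicate 1, 8340 lay below and 3109 above 50 CPM. The number tested in that fit, which was filtered anew, is not given here. These are therefore counts without a share, and 8 of 8 cannot be set against one. With all 3 libraries, Alas2 was also not separated from 50 CPM by DESeq2's Wald test (adjusted p = 0.148) or limma-voom (0.517). Nor was it with robust empirical Bayes (0.1995). Limma-voom, which averages log2 levels, placed Alas2 0.40 above 50 CPM on that scale, against 2.16 by edgeR. DESeq2 placed 0 of the 8 genes below. The reference level entered DESeq2 by scaling its size factors, and its precision differed between references. Ppox lay 4.70 above 1 CPM (DESeq2 adjusted p = 4.0e-43) but -0.95 from 50 CPM (0.364). DESeq2's calls against 50 CPM therefore do not settle whether edgeR's hold. Across the alternatives the adjusted p for Alas2 ran between 2.31e-41 and 0.517. The lowest came from edgeR without replicate 2 and rests on 2 libraries, read at 618 and 42.1 CPM. The second of these lay below 50 CPM, so that p-value does not show a level above 50 CPM in each library.

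Genes whose levels across the 3 libraries followed Alas2 most closely were found by the distance between log2 profiles, each centred on its own mean, among 9586 genes with a mean of at least 5 CPM. The nearest 5 were Car2 (distance 0.17), Epb42 (0.20), Hemgn (0.24), Rhag (0.26) and Sox6 (0.27). Car2, a carbonic anhydrase abundant in red cells, had 393, 8.56 and 30.1 CPM in replicates 1, 2 and 3. Epb42, a protein of the red cell membrane skeleton, was read at 79.2, 0.785 and 4.73 CPM, and Hemgn, a nuclear protein of erythroid and other blood progenitors, at 105, 1.14 and 5.65 CPM. Among the enzymes Fech came nearest to Alas2, at rank 116 and a distance of 1.79. Ppox (4.22) and Alas1 (4.45) were farthest. The genes nearest to Alas1 were Wbp2 (0.00), Nlrx1 (0.01), Zdhhc12 (0.01), Tspyl3 (0.02) and Snord8 (0.02), and Ppox followed at rank 1374 and a distance of 0.33. With 3 points per profile these lists are a description.

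Markers of red cell precursors moved with Alas2. The 13 measured erythroid markers, none of them an enzyme gene, summed to 4903, 77.3 and 359 CPM in replicates 1, 2 and 3. All 13 were highest in replicate 1, and 12 by over 4-fold over each other library. Of all genes tested, 44.6% were highest in replicate 1 and 14.1% by over 4-fold. The beta-globin gene Hbb-bs was read at 1769.9, 22.7 and 142 CPM, and Slc4a1, the anion exchanger of the red cell membrane, at 599.7, 14.6 and 50.3 CPM. Gata1, the erythroid and megakaryocytic transcription factor, was read at 8.30, 0.999 and 2.60 CPM. Of the 13, 2 had no count in replicate 2, Rhag and Epor, which allows up to 0.214 CPM there. Per 100 CPM of this erythroid sum, a ratio chosen after the values were seen, Alas2 was read at 12.6, 14.9 and 11.7 CPM, a narrow range across libraries whose erythroid sums lay far apart. By the same ratio Fech was read at 4.91, 34.4 and 11.01 CPM and Alas1 at 0.437, 41.4 and 5.46 CPM.

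Macrophage markers moved the same way and T cell markers did not. The 10 macrophage markers summed to 1487, 120 and 304 CPM in replicates 1, 2 and 3, all highest in replicate 1. Of the 10, 7 stood over 4-fold higher there than in each other library. Spic, a transcription factor of iron-recycling macrophages, was read at 44.2, 1.64 and 6.95 CPM, and Vsig4 had no count in replicate 2. The 8 T cell markers summed to 2947, 3799 and 3738 CPM, and the 5 monocyte markers to 603, 902 and 356 CPM. The mitochondrial share of counts also ran in the order of Alas2, highest in replicate 1 (17.8%), then replicate 3 (13.1%), then replicate 2 (6.22%). The part of erythroid or macrophage cells, or of library quality, in the levels of the enzyme genes was not tested.

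**Figure D3:**
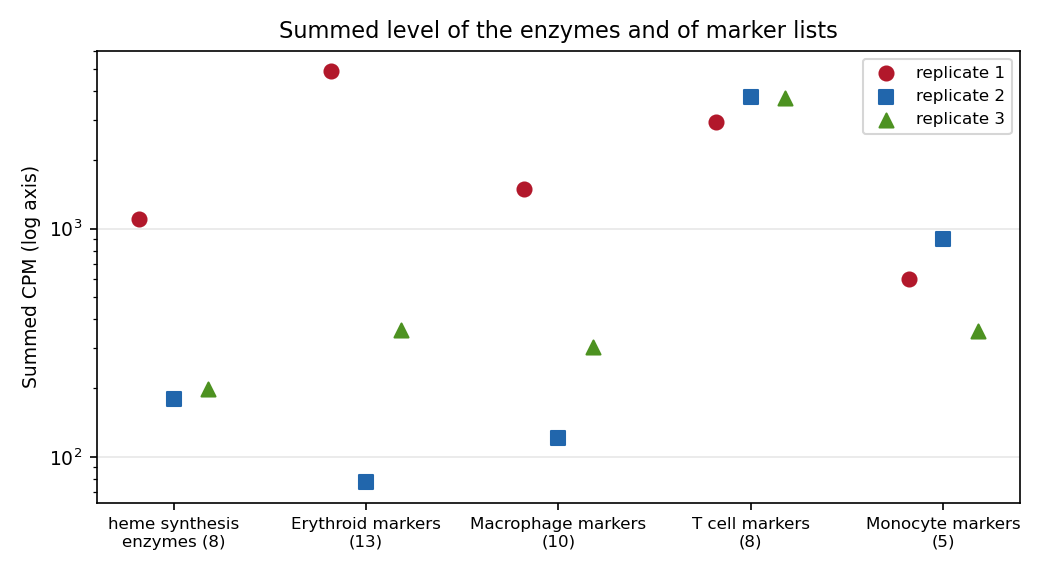
Summed CPM (log axis) of the 8 enzyme genes and of 4 marker lists, with 1 marker per library and the number of genes in brackets. The enzyme, erythroid and macrophage sums are highest in replicate 1, and the T cell sum is lowest there.

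Genes that bring iron and substrates to the pathway were described as a list of 21 genes, of which 20 were measured and Fdx2 was not analysed here. All 20 lay above 1 CPM and 5 above 50 CPM by edgeR's test (1 by DESeq2's), against 68.6% and 19.9% of all genes tested. Highest per kilobase were the ferritin chains Fth1 (399.5, 201 and 250.03 CPM in replicates 1, 2 and 3) and Ftl1 (234, 104 and 100.4 CPM), then Suclg1, a subunit of the enzyme that handles succinyl-CoA (60.2, 40.4 and 54.3 CPM). Abcb10, Abcb6 and Steap3 were lowest, and Steap3, an endosomal iron reductase, was read at 6.31, 3.92 and 0.993 CPM.

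Within that list, 2 of 20 genes stood over 4-fold higher in replicate 1 than in each other library, a smaller share than the 14.1% of all genes tested. They were Slc25a37, mitoferrin 1, which carries iron into the mitochondria of red cell precursors (282, 46.4 and 56.6 CPM), and Abcb10, a mitochondrial transporter that works with it (44.8, 8.56 and 7.86 CPM). Tfrc, the transferrin receptor, was read at 207, 78.7 and 81.3 CPM. Slc25a28, the mitoferrin of other tissues, was highest in replicate 2 (17.4, 29.1 and 17.6 CPM), as was Shmt2, which makes glycine in mitochondria (32.6, 72.8 and 46.9 CPM). The list's median ratio was 1.55 for replicate 1 over replicate 2 and 1.33 for replicate 1 over replicate 3.

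Genes that break down, move, sense or use heme were a list of 23, of which 21 were measured and Flvcr1 and Flvcr2 were not analysed here. All 21 lay above 1 CPM and 8 above 50 CPM by edgeR's test (1 by DESeq2's), against 68.6% and 19.9% of all genes tested. Highest per kilobase were Cyba (82.3, 88.4 and 78.4 CPM in replicates 1, 2 and 3), Hmox1 and Cat, the catalase gene (167, 73.5 and 81.3 CPM). Cyba encodes the small chain of the phagocyte oxidase that partners the heme-bearing chain Cybb. Lowest were Abcg2, Cycs and Nr1d1, and Nr1d1, a nuclear receptor that binds heme, was read at 5.36, 2.71 and 3.89 CPM. Over 4-fold higher in replicate 1 were 4 of 21 genes, near the 14.1% of all genes tested. Hmox1, the inducible heme oxygenase, was read at 213, 7.63 and 17.1 CPM, and Slc40a1 at 285, 13.4 and 53.0 CPM. Blvrb, a biliverdin reductase, was read at 52.6, 3.00 and 7.48 CPM, and Hebp1, a heme-binding protein, at 26.8, 0.143 and 3.13 CPM, the middle value being 2 counts.

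Other genes of the list varied less between libraries. Hmox2, the constitutive heme oxygenase, was read at 52.4, 44.9 and 48.1 CPM, and Eif2ak1, the kinase that slows translation when heme is short, at 123, 92.02 and 81.8 CPM. Bach1, a repressor that heme releases from DNA, was read at 71.3, 99.3 and 73.0 CPM, and Ireb2, an iron regulatory protein, at 86.0, 114 and 110 CPM. The list's median ratio was 1.36 for replicate 1 over replicate 2 and 1.38 for replicate 1 over replicate 3, below the 2.39 and 2.64 of the enzyme genes. Slc40a1 stands in the macrophage list as well, and the part of those cells in its level was not tested.

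**Figure D4:**
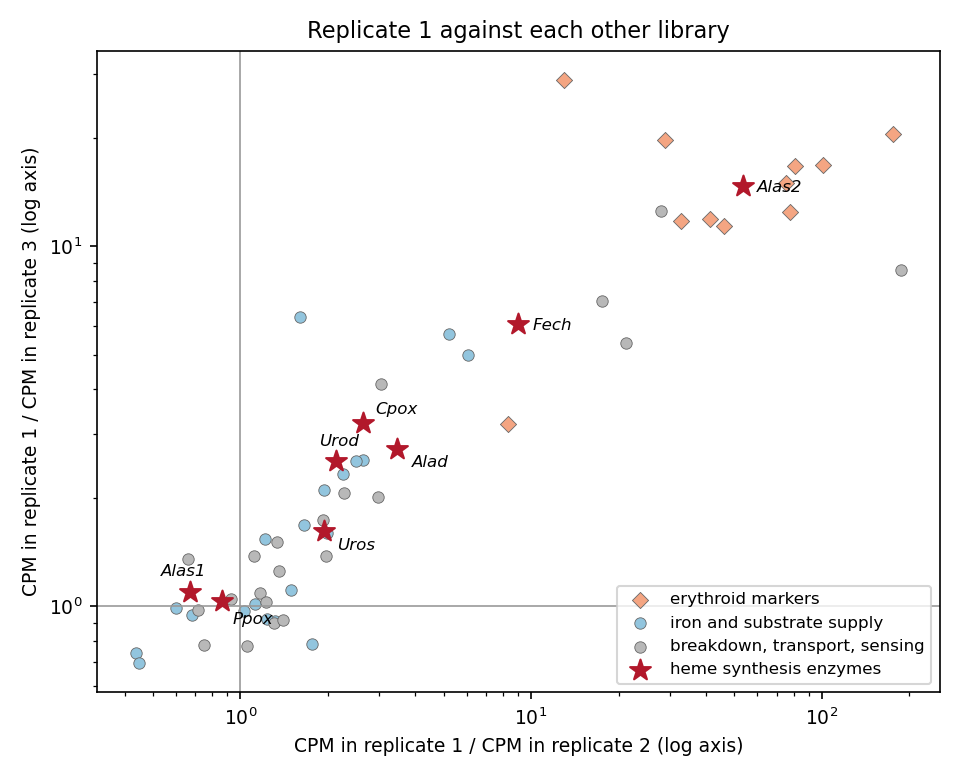
CPM in replicate 1 over CPM in replicate 2 (horizontal, log axis) and over CPM in replicate 3 (vertical, log axis) for the enzyme genes (stars), the erythroid markers and the lists of iron and heme genes. Alas2 (53.5 and 14.7) lies among the erythroid markers, Fech (9.05 and 6.09) lies below most of them and above the other enzymes, and Alas1 and Ppox lie near 1; Rhag and Epor, with no count in replicate 2, are not drawn.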

How the data were processed

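Per the labels' protocols, TRIzol RNA, 8 ng for each library, went into a strand-specific total RNA kit for low input (TaKaRa SMARTer Pico v2). The deposited table holds raw whole-number read counts per gene, with a gene length in bases. The submitters' processing notes name bcl2fastq, STAR 2.75, featureCounts and DESeq2 1.18.1 with mm10 and give no roles. The annotation, strand setting and treatment of multiply mapped reads are not given in the sources used here.

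CPM used edgeR 4.0.16 TMM factors (1.05, 1.01 and 0.945). Genes with at least 10 counts in sum, 15490 in all, were tested against 1 CPM and 50 CPM by edgeR's quasi-likelihood test with an intercept alone, two-sided, with Benjamini-Hochberg adjustment and a threshold of 0.05. The F-test was computed from edgeR's fit and run on simulated counts with a common dispersion and, for each gene, the same mean level in all 3 libraries. That check does not cover genes with 1 library far above the others, such as Alas2 and Fech. Log2 differences between genes used CPM per kilobase plus 0.5. A count of 0 allows up to 3 counts, 0.214 to 0.315 CPM. The alternatives used limma 3.58.1 and DESeq2 1.42.0, other factors, totals and filters, and 2 libraries at a time.

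The 8 enzyme genes and the lists were chosen with earlier results of these data known. The text names all 8, and from each of 2 pathway lists the 3 highest and 3 lowest genes per kilobase and those over 4-fold highest with Alas2. Slc25a28, Tfrc, Shmt2, Hmox2, Eif2ak1, Bach1, Ireb2 and the markers given singly were named after their values were seen. Identifiers of 17795 genes matched RefSeq genes of GRCm38.p6. Ahsp, among 14 erythroid markers listed, was not analysed here.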

Additional observations from a re-analysis of the deposited data

How the results depend on the processing

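The 3 libraries form 1 group and limit every statement on spread. No paired analysis was possible because there is 1 group and the replicate numbers pair no samples. All 8 enzyme genes lay above 1 CPM under each of the 11 alternatives to the test. The count above 50 CPM, 1 as reported, was 2 without mitochondrial genes in the total and 2 with no filter on low counts, Fech being the addition (edgeR adjusted p = 0.0349 and 0.0278). It was 0 by DESeq2's Wald test, by limma-voom and with robust empirical Bayes (0 at an unadjusted p under 0.05 in each), and 0 to 2 when a library was left out. The count below 50 CPM, 4 as reported, was 0 by DESeq2 (2 at an unadjusted p under 0.05), and 4 to 8 when a library was left out. Without replicate 1 the log2 level against 50 CPM turned to -0.93 for Alas2, -0.72 for Cpox and -0.63 for Fech. With 1 library left out in turn it thus ran from there to 2.71, 0.36 and 1.48. DESeq2 placed 1 of the supply genes and 1 of the breakdown, transport and sensing genes above 50 CPM. Over all genes, DESeq2 called 1165 above and 5483 below 50 CPM, against 3075 and 10331 by edgeR. The number below was 6145 with edgeR's own filter and 5656 to 10574 when a library was left out. The reference level entered DESeq2 by scaling its size factors, and its precision differed between references, as given above for Ppox. With edgeR's own filter, the set of genes tested was another one. Further causes of these differences were not tested. The mean of Alas2 minus Alas1 stayed positive under its 7 alternatives, from 0.26 to 3.35. Of the 8 ranks in the order per kilobase, 4 were kept without division by length, and 4, 1 and 2 were kept within replicates 1, 2 and 3 alone.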
